A study of Mus musculus with 12 samples.

Results

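The genes described here are 10 genes that build, transport or process the lipids of the epidermal water barrier: Alox12b, Aloxe3, Sdr9c7, Alox12, Cyp4f39, Elovl4, Cers3, Ugcg, Abca12 and Acer1. They were chosen by gene symbol from a fixed list, with no measured value in the rule, and they are 10 of the 53801 genes in the 2 deposited count tables. The list was drawn up with earlier results of these data known, so it is not independent of them. The cells were sorted by flow cytometry from squamous cell carcinomas of the skin in FVB mice, and their RNA was sequenced. The first comparison set basal carcinoma cells (YFP+ CD49f+ CD29+) positive for an mScarlet reporter of TGF-beta signalling against basal carcinoma cells negative for it, with 3 libraries in each group. The second set macrophages (CD45+ F4/80+) of such tumors positive for the IgE receptor chain FceRIa against macrophages negative for it, again with 3 libraries in each group. All 4 groups came from tumor tissue, no normal skin was included, and the labels name neither the promoter of the reporter, the age of the mice nor whether replicates were separate animals, so p-values measure only the spread between these libraries, which may be technical.

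In the outer living layers of the epidermis, very long fatty acids are hydroxylated at their far end, joined to sphingoid bases and esterified with linoleate to give acylceramides. These are glucosylated, loaded into lamellar granules by a lipid transporter and secreted, and lipoxygenases oxidise the linoleate so that the ceramide can be bound to the cornified envelope. Loss of most of the enzymes concerned causes ichthyosis or a lethal water-loss defect in mice or people. Barrier lipid genes are known mainly from suprabasal keratinocytes, whereas the carcinoma cells here were sorted by integrins of the basal layer.

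The carcinoma libraries held 27951632 to 35088897 counts and the macrophage libraries 33704786 to 40041144 counts. A count of 3 corresponded to 0.0698 to 0.107 CPM (counts relative to the scaled library total), the unit of all levels below, and every member lay above it in every library. Keratinocyte markers (Krt5, Krt14, Epcam, Trp63, Cdh1, Sfn, Krt6a and Krt17) summed to 70984 to 89901 CPM in reporter-positive and 72955 to 82186 CPM in reporter-negative carcinoma cells. Replicate 2 stood apart from replicates 1 and 3 in both carcinoma groups. Replicates 1 and 3 differed by 1.62 times their degrees of freedom in a chi-square test of counts over genes in reporter-positive and 3.11 in reporter-negative cells, whereas every carcinoma replicate pair with replicate 2 in it gave 46.9 to 99.4. Since 1 is the value of pure counting noise, replicates 1 and 3 were nearly repeat measurements, and the calls of the 10 genes are also given without replicate 2 and with libraries 1 and 3 summed as 1 sample.

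All 10 genes were higher in reporter-positive than in reporter-negative carcinoma cells in each of the 3 replicate numbers, by 0.28 (Cers3, replicate 1) to 3.48 (Alox12b, replicate 2) on the log2 scale. Fitted over all libraries without pairing, the differences were 0.47 to 2.66. In that fit the largest differences were those of Sdr9c7 and Alox12b, enzymes of the oxidation step, and of the ceramidase gene Acer1. The smallest were those of the ceramide synthase gene Cers3 and the glucosylceramide synthase gene Ugcg. The order of the larger differences varied between replicates. Sdr9c7, at 1.26 in replicate 1, lay below Elovl4 at 1.31, and Acer1, at 0.95 in replicate 3, lay below Cyp4f39 at 1.42. Over all genes tested, 28.7% were higher in all 3 numbers. The summed level of the 10 genes was 238, 505 and 237 CPM in reporter-positive libraries 1, 2 and 3, against 123, 142 and 125 CPM in reporter-negative libraries 1, 2 and 3. In this bulk RNA, more cells that express a gene and more of its RNA per cell cannot be told apart.

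With edgeR's quasi-likelihood test on unpaired libraries, none of the 10 passed the Benjamini-Hochberg threshold of 0.05 over the 13604 genes tested, with adjusted p-values of 0.0590 to 0.252. In that fit 0.573% of all genes passed as higher. At an unadjusted p under 0.05 all 10 were higher, where 2642 of all genes passed in either direction. DESeq2 called 9 of them as higher, among 708 genes. With the replicate number as a block, which sets each positive library against the negative library of the same number, all 10 passed as higher and none as lower, where 10.7% of all genes were higher and 7.34% lower. The median log2 difference over the 10 genes was 1.73 in the unpaired fit, where that of all genes was 0.00. In 9 genes the lowest positive library lay above the highest negative library, which held for 14.6% of all genes. Alox12 was the exception.

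**Figure D1:**
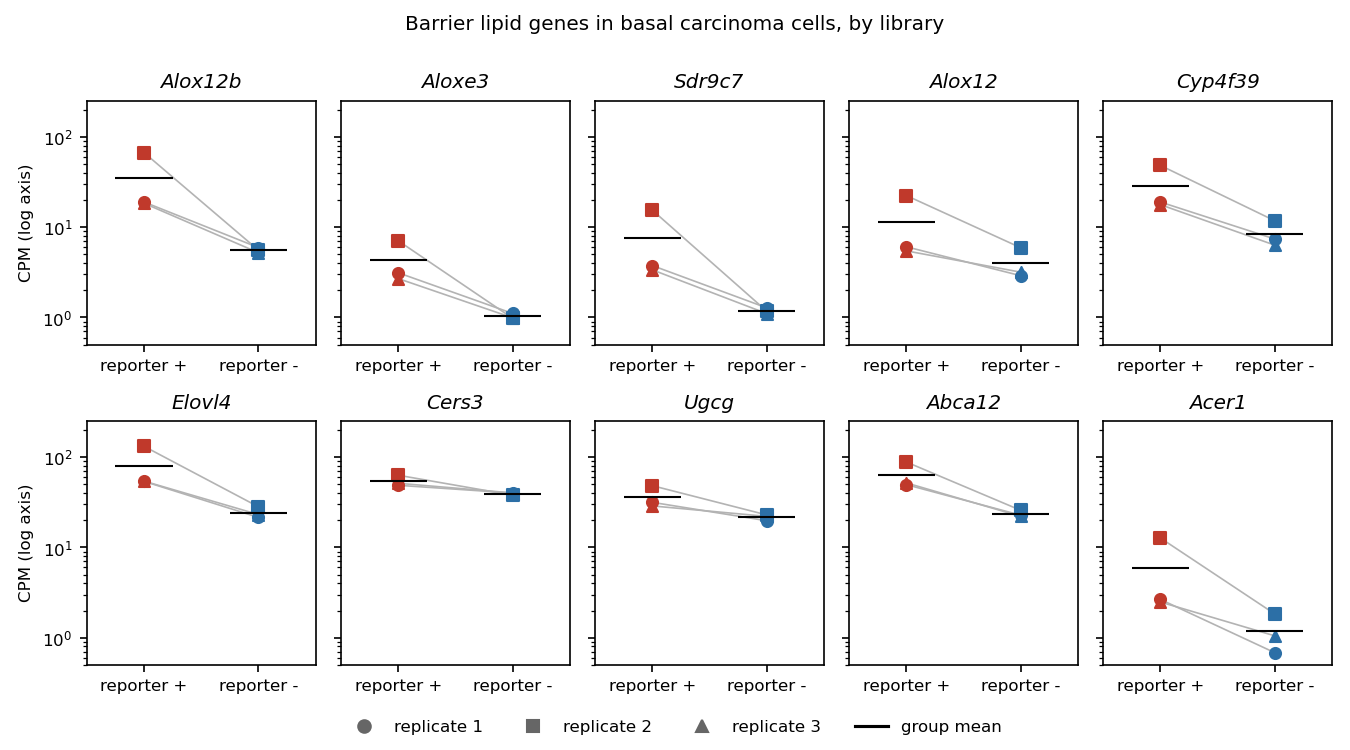
Levels of the 10 genes in each carcinoma library in CPM on a log axis, with reporter-positive libraries at the left and reporter-negative libraries at the right of each panel; symbols mark the replicate number, grey lines join libraries of the same number and black bars are group means (n = 3). Each grey line falls toward the negative side, and the square of replicate 2 is the highest positive point in every panel, as in Alox12b with 67.0 CPM against 19.0 and 18.4 CPM.

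The size of the differences followed the replicate number. In all 10 genes the positive minus negative difference was largest in replicate 2; of the 3902 genes that were higher in all 3 numbers, 54.3% shared that order. The median difference of the 10 genes was 1.22, 2.10 and 1.16 on the log2 scale in replicates 1, 2 and 3. Without replicate 2, the differences in the fit with the block were 0.31 to 1.74 on the log2 scale. That fit called all 10 as higher, among 2927 genes called higher. It rests on replicates 1 and 3, which were nearly repeat measurements, so its calls measure only the spread between near repeats. With only reporter-positive library 2 left out of the unpaired fit, the log2 difference was 1.74 for Alox12b, 1.58 for Sdr9c7, 1.11 for Acer1, 1.11 for Cyp4f39 and 0.53 for Alox12, each smaller by more than 1.5 times in fold than with all libraries. With libraries 1 and 3 summed as 1 sample, the block fit called all 10 among 691 genes called higher, and the unpaired fit, left with 2 samples a group, called none.

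The starts of the genes with the largest and smallest differences in the unpaired fit are printed here because the 10 genes differed in the same direction. RefSeq's table for GRCm38.p6 holds the stretch from 250 bases before to 50 bases after the start for 9 of the 10 genes, all but Aloxe3. Capitals mark CAGAC, the core of a SMAD element, or its reverse complement. All 4 stretches lie on the plus strand and are written 5′ to 3′, at chr11:69156822-69157121 for Alox12b, chr10:127898285-127898584 for Sdr9c7, chr7:66743254-66743553 for Cers3 and chr4:59189300-59189599 for Ugcg.
Alox12b: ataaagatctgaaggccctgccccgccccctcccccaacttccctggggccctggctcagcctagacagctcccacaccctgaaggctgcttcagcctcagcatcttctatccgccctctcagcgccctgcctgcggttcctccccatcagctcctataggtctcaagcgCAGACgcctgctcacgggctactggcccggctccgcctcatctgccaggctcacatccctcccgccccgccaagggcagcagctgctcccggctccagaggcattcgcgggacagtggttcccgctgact
Sdr9c7: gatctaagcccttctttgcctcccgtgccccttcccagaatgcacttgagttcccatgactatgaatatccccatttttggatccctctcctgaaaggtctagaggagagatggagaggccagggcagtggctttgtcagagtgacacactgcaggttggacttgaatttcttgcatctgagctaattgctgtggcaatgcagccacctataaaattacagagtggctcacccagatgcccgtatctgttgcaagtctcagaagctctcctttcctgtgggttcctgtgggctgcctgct
Cers3: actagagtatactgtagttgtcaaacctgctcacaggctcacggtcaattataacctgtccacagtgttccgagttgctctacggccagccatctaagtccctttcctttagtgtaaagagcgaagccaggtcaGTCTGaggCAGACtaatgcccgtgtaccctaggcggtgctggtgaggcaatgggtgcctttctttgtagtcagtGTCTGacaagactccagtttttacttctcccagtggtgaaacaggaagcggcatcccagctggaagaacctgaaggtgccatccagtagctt
Ugcg: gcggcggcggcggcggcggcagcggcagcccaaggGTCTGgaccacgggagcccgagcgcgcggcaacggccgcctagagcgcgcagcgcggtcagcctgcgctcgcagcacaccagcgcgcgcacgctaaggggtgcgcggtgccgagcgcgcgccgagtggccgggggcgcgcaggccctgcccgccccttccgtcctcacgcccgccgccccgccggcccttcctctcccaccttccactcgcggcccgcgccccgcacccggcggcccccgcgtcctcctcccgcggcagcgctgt
Counted from RefSeq's start, CAGAC stood in the Alox12b promoter 80 bases before it, in the Ugcg promoter 215 bases before it, and in the Cers3 promoter at 3 places. The Sdr9c7 promoter held none. GENCODE M21, the source of the gene coordinates below, begins Alox12b at 69156989 and Ugcg at 59189257. Both positions lie before the marked letters, which are thus inside these genes by GENCODE. Of the 9 promoters 5 held CAGAC on either strand, against 49.6% of the 32851 mouse promoters in the table. The GC box GGGCGG was found in 4 of 9, against 35.7% of all promoters. TATAAA stood in 1 of 9, Sdr9c7, 42 bases before RefSeq's start, against 13.6% of all, and the AP-1 letters TGANTCA in 0 of 9, against 7.81%. GC content was 66.0% for Alox12b, 51.0% for Sdr9c7, 50.7% for Cers3 and 81.3% for Ugcg, beside a median of 52.7% over all promoters. A match is a description of letters in the window and shows no binding.

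The oxidation step begins with Alox12b (ENSMUSG00000032807, GRCm38 chr11:69156989-69169792, plus strand), the lipoxygenase that acts first on the linoleate of acylceramides. Its level was 19.0, 67.0 and 18.4 CPM in reporter-positive libraries 1, 2 and 3, against 5.95, 5.56 and 5.22 CPM in reporter-negative libraries. The negative libraries lay within a narrow band, every positive library lay above them, and library 2 was far above the other positive ones. The log2 difference was 2.64 ± 0.55 (SE; adjusted p = 0.0834 by edgeR), or 2.39 with the block (adjusted p = 0.0117 by edgeR).

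Aloxe3 (ENSMUSG00000020892, chr11:69125896-69149115, plus strand) encodes the epidermal hydroperoxide isomerase that acts on the product of Alox12b. Its level was 3.13, 7.08 and 2.70 CPM in reporter-positive libraries and 1.11, 0.982 and 0.993 CPM in reporter-negative libraries, without overlap. The log2 difference was 2.06 ± 0.41 (SE; adjusted p = 0.0769 by edgeR; 0.0120 with the block). Sdr9c7 (ENSMUSG00000040127, chr10:127898518-127911761, plus strand) encodes the dehydrogenase that follows both lipoxygenases. It had 3.76, 15.5 and 3.38 CPM in reporter-positive libraries, against 1.28, 1.18 and 1.11 CPM in reporter-negative libraries. These 3 genes shared a pattern of flat negative libraries and a high positive library 2, and the log2 difference of Sdr9c7 was 2.66 ± 0.65 (SE; adjusted p = 0.105 by edgeR; 0.0173 with the block).

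Alox12 (ENSMUSG00000000320, chr11:70241457-70255353, minus strand) encodes the platelet-type lipoxygenase, which the epidermis also makes. Its level was 6.07, 22.4 and 5.47 CPM in reporter-positive libraries and 2.90, 5.92 and 3.18 CPM in reporter-negative libraries. Here replicate 2 was the highest library of both groups, and negative library 2 lay above positive library 3 and just below positive library 1. The log2 difference was 1.51 ± 0.62 (SE; adjusted p = 0.252 by edgeR), the weakest by that test among the 10 genes, and 1.32 with the block (adjusted p = 0.0153 by edgeR). Platelet markers were measured because platelets are rich in Alox12. Of 7 markers 4 were tested, and 2, Ppbp and Gp1bb, passed with the block. The 7 summed to 9.45 to 13.1 CPM in reporter-positive and 5.05 to 5.95 CPM in reporter-negative cells, with Gp6 at 0 in every library. Ppbp, a platelet chemokine, passed also in the unpaired edgeR fit, at a log2 difference of 1.12 ± 0.15 (SE, adjusted p = 0.0475). Whether platelet RNA has a part in the Alox12 result was not tested.

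Aloxe3 and Alox12b are neighbours in the same orientation, 7.87 kb apart, and Alox8 lies 14.1 kb past Alox12b on the opposite strand. Alox8, the lipoxygenase next to the differing pair, averaged 0.830 CPM in reporter-positive and 0.930 CPM in reporter-negative cells, a log2 difference of -0.16 ± 0.33 (SE; adjusted p = 0.852 by edgeR). On the other side of the pair, the clock gene Per1 differed by 0.05 ± 0.40 and the vesicle gene Vamp2 by -0.08 ± 0.11 on the log2 scale (SE), with adjusted p-values of 0.963 and 0.766 by edgeR. None of the 3 neighbours passed with the block either. Alox12 lies 1070 kb from Alox12b.

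Among the genes that make acylceramide, Elovl4 (ENSMUSG00000032262, chr9:83778692-83806277, minus strand) encodes the elongase of the longest fatty acids. It had 54.0, 132 and 54.3 CPM in reporter-positive libraries, against 21.5, 28.2 and 23.1 CPM in reporter-negative libraries. All positive libraries lay above all negative ones, with a log2 difference of 1.72 ± 0.38 (SE; adjusted p = 0.0881 by edgeR; 0.00713 with the block). Cyp4f39 (ENSMUSG00000061126, chr17:32452723-32493320, plus strand) encodes the mouse counterpart of the cytochrome that hydroxylates these fatty acids at their far end. Its level was 19.0, 48.3 and 17.8 CPM in reporter-positive libraries and 7.40, 11.8 and 6.32 CPM in reporter-negative libraries, and replicate 2 was the highest of both groups. The log2 difference was 1.74 ± 0.46 (SE; adjusted p = 0.118 by edgeR; 0.00393 with the block).

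Cers3 (ENSMUSG00000030510, chr7:66743504-66823691, plus strand) encodes the ceramide synthase for the longest acyl chains. Its level was 48.8, 63.1 and 51.4 CPM in reporter-positive libraries, against 40.1, 37.9 and 40.2 CPM in reporter-negative libraries. The groups did not overlap, yet the log2 difference of 0.47 ± 0.10 (SE; adjusted p = 0.0907 by edgeR; 0.0239 with the block) was the smallest of the 10. Ugcg (ENSMUSG00000028381, chr4:59189257-59222833, plus strand) encodes the enzyme that adds glucose to ceramide in many cell types. It had 31.6, 48.4 and 28.8 CPM in reporter-positive libraries and 19.8, 22.9 and 22.1 CPM in reporter-negative libraries. Again the groups stood apart, with a log2 difference of 0.75 ± 0.20 (SE; adjusted p = 0.121 by edgeR; 0.0171 with the block).

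Abca12 (ENSMUSG00000050296, chr1:71242276-71414910, minus strand) encodes the transporter that loads glucosylceramide into lamellar granules. Its level was 49.6, 88.4 and 51.9 CPM in reporter-positive libraries, against 22.8, 25.8 and 22.1 CPM in reporter-negative libraries. The log2 difference of 1.43 ± 0.23 (SE) was of middle size, but its adjusted p of 0.0590 by edgeR was the lowest of the 10 genes in the unpaired fit; with the block it was 0.00446. Acer1 (ENSMUSG00000045019, chr17:56953490-56982126, minus strand) encodes the alkaline ceramidase of the epidermis, which breaks ceramide down. It had 2.66, 12.7 and 2.49 CPM in reporter-positive libraries and 0.683, 1.83 and 1.05 CPM in reporter-negative libraries. The groups did not overlap, positive library 2 was the highest, and the log2 difference was 2.33 ± 0.76 (SE; adjusted p = 0.170 by edgeR; 0.00977 with the block). GENCODE M21 places another gene over Acer1 on the opposite strand, and that gene has no counts of its own in the deposited data. The labels do not say that counting used strand, so any reads of that gene cannot be told apart from those of Acer1.

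**Figure D2:**
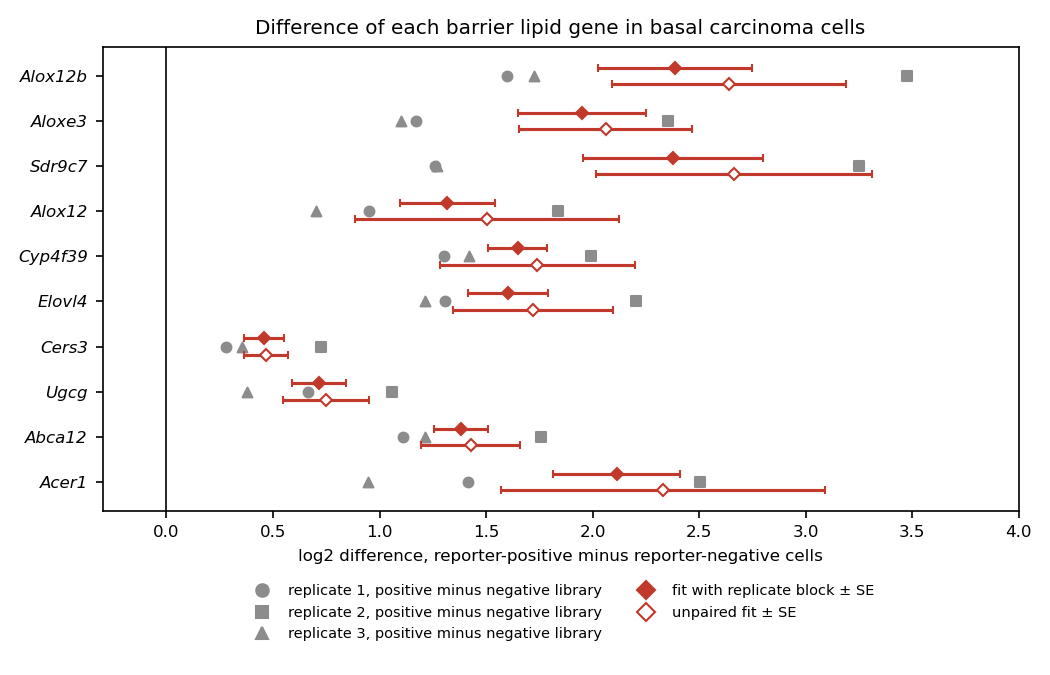
Log2 differences of the 10 genes, reporter-positive minus reporter-negative carcinoma cells; grey symbols give each replicate number, filled diamonds the fit with the replicate block and open diamonds the unpaired fit, with SE as bars. All symbols lie right of 0, the squares of replicate 2 lie farthest right (3.48 for Alox12b), and the bars of the block fit are narrower than those of the unpaired fit for all 10 genes.

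Per kilobase of merged exon, the order of levels differed between the groups. In reporter-positive cells Elovl4 was first with 26.5 ± 14.8 CPM per kb (SD, n = 3), then Cers3 with 16.7 ± 2.34, Alox12b with 14.3 ± 11.5, Cyp4f39 with 9.93 ± 6.06 and Ugcg with 6.96 ± 2.03 CPM per kb. In reporter-negative cells Cers3 was first with 12.1 ± 0.390 CPM per kb (SD, n = 3), then Elovl4 with 8.03 ± 1.15, Ugcg with 4.14 ± 0.314, Cyp4f39 with 2.98 ± 1.01 and Alox12b with 2.29 ± 0.15 CPM per kb. The ranges over libraries overlapped for each pair of neighbours in the reporter-positive order. In the reporter-negative order they did not overlap between Cers3 and Elovl4, Elovl4 and Ugcg, Alox12b and Abca12, Abca12 and Alox12, or Sdr9c7 and Aloxe3, and overlapped between the other neighbours. The other 5 genes followed at 0.673 to 4.28 CPM per kb in reporter-positive and 0.161 to 1.59 CPM per kb in reporter-negative cells, with Aloxe3 last in both.

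Over the 6 carcinoma libraries, the genes outside the list whose pattern was most like that of Alox12b were Sprr1a, Defb14, Lce3c, Cnfn and Slpi. Likeness was the root mean square distance of log2 levels centred on each gene's mean, over 8382 genes with a mean of at least 10 CPM and the members; the distance was 0.107, 0.119, 0.177, 0.207 and 0.230 for these genes, beside a median of 1.30. Sprr1a, a cornified envelope precursor, had 233, 936 and 219 CPM in reporter-positive libraries and 76.2, 76.8 and 79.5 CPM in reporter-negative libraries. Sdr9c7 was at place 4 in that order, Elovl4 at place 19, Aloxe3 at 21, Cyp4f39 at 27, Acer1 at 29, Abca12 at 47 and Alox12 at 57. Ugcg at 144 and Cers3 at 353 were the members least like Alox12b. The 6 libraries share the sort and the split by replicate 2, so the order describes these libraries alone.

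Of 16 other genes of acylceramide synthesis and of the lipid envelope 15 were tested, and with the block 9 passed as higher and none as lower. Over all carcinoma genes 10.7% were higher and 7.34% lower with the block, the shares to set beside this list and those below. None passed the unpaired edgeR fit, and the median log2 difference over the 15 was 0.65. Degs2, the hydroxylase and desaturase that forms phytoceramide, had 12.0, 37.8 and 10.2 CPM in reporter-positive libraries, against 5.24, 4.65 and 4.62 CPM in reporter-negative libraries, and its log2 difference was 2.05 ± 0.52 (SE; adjusted p = 0.113 by edgeR; 0.0232 with the block). Tgm1, the transglutaminase of the cornified envelope, differed by 1.82 ± 0.47, the epoxide hydrolase gene Ephx3 by 1.75 ± 0.42 and the cholesterol sulfotransferase gene Sult2b1 by 0.93 ± 0.20 on the log2 scale (SE). All 3 passed with the block and missed the threshold without it, where their adjusted p-values by edgeR were 0.116, 0.104 and 0.0870.

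The general steps of ceramide synthesis showed smaller differences in both directions. Of 14 genes 13 were tested, with a median log2 difference of 0.07; none passed the unpaired fit, and with the block 2 were higher and 2 lower. Sptlc1, a subunit of serine palmitoyltransferase, was higher by 0.25 ± 0.08, and the ceramide synthase genes Cers2 and Cers4 were lower, at -0.27 ± 0.13 and -1.15 ± 0.55 (log2, SE; adjusted p with the block 0.0270, 0.0196 and 0.0199 by edgeR). The remaining call, named after its values were seen, was the small subunit gene Sptssb at 1.38 ± 0.97. Cers2, the synthase of long chains in most tissues, had 87.8, 68.8 and 90.1 CPM in reporter-positive libraries, against 106, 88.0 and 104 CPM in reporter-negative libraries, opposite in direction to Cers3 in each replicate number.

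Among genes of fatty acid synthesis and elongation, 11 of 13 were tested, with a median log2 difference of 0.16. None passed unpaired, and with the block 3 were higher and none lower. Elovl7, an elongase of saturated chains, was the nearest to the threshold in the unpaired fit, with 36.0, 36.7 and 37.4 CPM in reporter-positive libraries and 25.8, 21.9 and 26.5 CPM in reporter-negative libraries (log2 difference 0.57 ± 0.09 SE; adjusted p = 0.0517 by edgeR). Unlike Elovl4, its positive libraries were nearly level, and replicate 2 did not stand out. The dehydratase genes Hacd2 and Hacd4 were the other calls with the block, at 0.27 ± 0.09 and 0.74 ± 0.31 (log2, SE). Of 18 genes of ceramide processing and turnover 16 were tested, with a median of 0.13, and only Smpd1, the acid sphingomyelinase gene, passed with the block (0.47 ± 0.14; adjusted p = 0.0389 by edgeR). Of the other lipoxygenase pathway genes 4 of 7 were tested and none passed either fit, with log2 differences of -0.16 to 0.07.

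Transcription factors known to act on epidermal lipid genes included 1 that passed without the block. Prdm1, a repressor active in the terminal differentiation of keratinocytes, had 14.9, 16.6 and 12.2 CPM in reporter-positive libraries, against 5.24, 3.63 and 5.59 CPM in reporter-negative libraries, a log2 difference of 1.59 ± 0.20 (SE; adjusted p = 0.0412 by edgeR). With the block 7 of the 14 tested were higher and none lower, the list holding 17 genes, with a median difference of 0.18. Grhl3, an activator of barrier genes, was higher by 1.93 ± 0.37, Ovol1 by 0.90 ± 0.17 and Klf4, whose loss in mice breaks the skin barrier, by 0.72 ± 0.12 (log2, SE); all 3 were calls of the block fit. Grhl3 had 55.7, 128 and 50.9 CPM in reporter-positive libraries and 22.2, 20.1 and 19.2 CPM in reporter-negative libraries, so its positive library 2 was the highest, whereas Ovol1 was level at 110, 102 and 109 CPM in positive libraries, against 65.7, 42.3 and 64.3 CPM in negative ones.

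**Figure D3:**
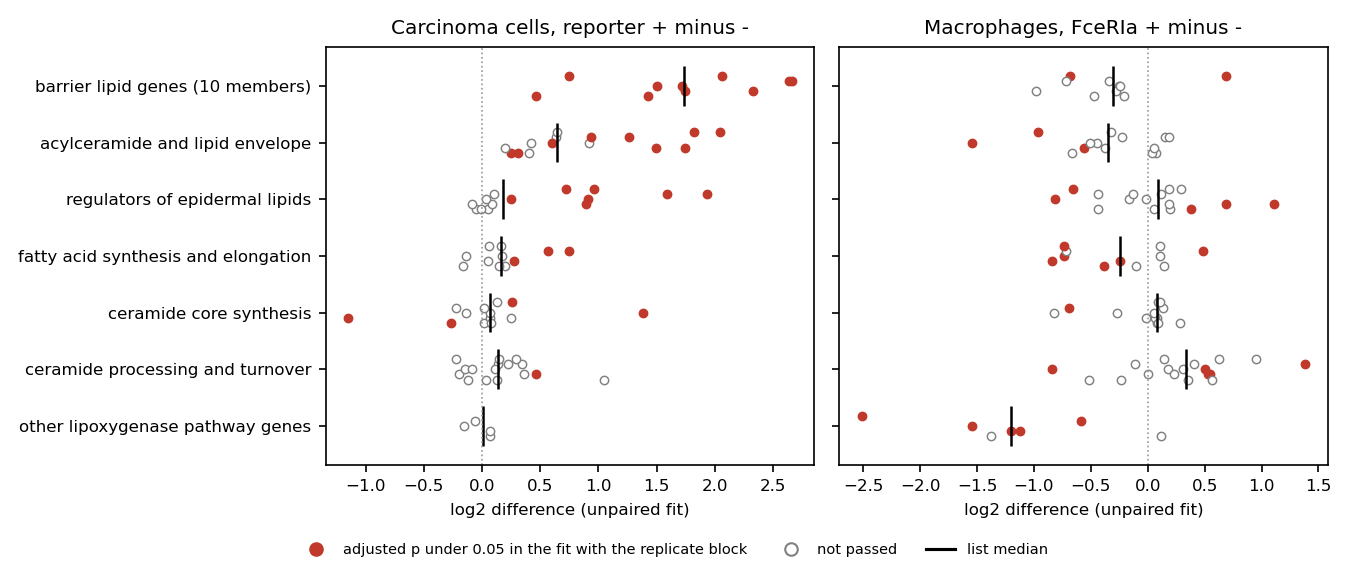
Log2 differences (unpaired fit) of the tested genes of each lipid list in carcinoma cells, reporter-positive minus reporter-negative (left), and in macrophages, FceRIa-positive minus FceRIa-negative (right); each point is a gene, filled points passed with the replicate block and black bars are list medians. In carcinoma cells the median is 1.73 for the 10 barrier lipid genes and 0.65 for other acylceramide genes, and the other lists lie at 0.00 to 0.18; in macrophages the other lipoxygenase pathway genes have the lowest median, -1.21.

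Markers of other cells and layers moved with the same groups in part. Of 7 suprabasal keratinocyte markers (Krt1, Krt10, Lor, Flg, Krtdap, Sbsn and Dsg1a) 6 were tested, and 3 passed with the block as higher, Sbsn, Dsg1a and Krt1. In the unpaired fit 4 of the 6 lay above 0. Krt10 and Lor were lower, at -0.28 ± 0.74 and -0.36 ± 0.32 (log2, SE), Krt10 in each replicate number. The 7 summed to 773, 1886 and 745 CPM in reporter-positive libraries 1, 2 and 3, against 629, 992 and 681 CPM in reporter-negative libraries. Krtdap was the largest part of these sums, with 553 to 1240.5 CPM in reporter-positive and 512 to 693 CPM in reporter-negative libraries. Krt1 had 257 CPM in positive library 2 and 166 CPM in negative library 2, and 37.0 to 51.7 CPM in the other 4 libraries. Negative library 2 was the highest of its group also for Alox12, Acer1, Cyp4f39, Elovl4, Abca12 and Ugcg, and not for Alox12b, Aloxe3, Sdr9c7 and Cers3. None of the 7 markers was at 0 in every library. Leukocyte markers summed to 22.8 to 135 CPM in reporter-positive and 18.6 to 102 CPM in reporter-negative libraries, highest in replicate 2 of both, and 2 of 10, Csf1r and Lyz2, passed with the block. Of 8 sebocyte markers only 3 were tested. None of them passed, but all 3 lay above 0 in the unpaired fit, with a median log2 difference of 1.72. Mc5r and Dgat2l6 were at 0 in every library. The sums were 2.72 to 15.9 CPM in reporter-positive and 1.51 to 2.88 CPM in reporter-negative libraries. Krt79 had 0.854, 11.4 and 1.17 CPM in reporter-positive libraries 1, 2 and 3, and 0.709 to 1.21 CPM in reporter-negative libraries. The part of suprabasal cells, leukocytes or sebocytes in the results was not tested.

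Ugcg was the only member with all carcinoma libraries below all macrophage libraries. Its 6 carcinoma libraries held 19.8 to 48.4 CPM, with a median of 25.9 CPM, and its 6 macrophage libraries 63.5 to 132 CPM, with a median of 99.2 CPM. Of the 16231 genes tested in either comparison, 39.3% were lower in all carcinoma libraries than in all macrophage libraries, and 32% were higher in all. Alox12, Abca12, Cers3, Elovl4 and Cyp4f39 were among the higher ones, with medians of 5.70 to 44.5 CPM in carcinoma cells and 0.511 to 6.24 CPM in macrophages. The libraries of Alox12b, Aloxe3, Acer1 and Sdr9c7 overlapped between the cell types. Aloxe3 alone among these 4 had a lower median in carcinoma cells, at 1.90 CPM in carcinoma cells and 2.29 CPM in macrophages. These levels carry no test, since cell type and table cannot be told apart.

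Between FceRIa-positive and FceRIa-negative macrophages, Ugcg was higher and Aloxe3 lower in the fit with the block, and no other member passed. Of all genes 10.8% passed as higher with the block and 10.2% as lower, so 1 of 10 members in each direction is near the share of all genes. The unpaired edgeR fit called 0 of the 14988 genes tested (0% in either direction), with 2345 at an unadjusted p under 0.05, and DESeq2 called 658 as higher and 605 as lower. Ugcg was the only member higher in all 3 replicate numbers, as were 28.3% of all genes. Groups did not overlap for Ugcg (higher, as for 11.6% of all genes) and for Aloxe3 (lower, as for 9.78%). Markers of the sorted cells moved with the groups: macrophage markers summed to 11565 to 14331 CPM in FceRIa-positive and 7829 to 9667 CPM in FceRIa-negative libraries, and 6 of 8 were higher with the block. Platelet markers summed to 220 to 383 CPM in FceRIa-positive and 23.8 to 79.2 CPM in FceRIa-negative libraries. Of the 7 only 4 were tested, and 2, Pf4 and Ppbp, were higher with the block. In the unpaired fit 2 of the 4 lay above 0, and the lowest log2 difference was -1.03. Gp6 was at 0 in every library. The part of either in the Ugcg and Aloxe3 results was not tested.

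Ugcg had 132, 128 and 111 CPM in FceRIa-positive macrophages and 78.8, 87.9 and 63.5 CPM in FceRIa-negative macrophages. Every positive library lay above every negative one, and the log2 difference was 0.69 ± 0.15 (SE; adjusted p = 0.0762 by edgeR; 0.000974 with the block). The call with the block held with each replicate left out and with DESeq2. Aloxe3 had 2.24, 1.58 and 1.41 CPM in FceRIa-positive macrophages, against 3.67, 2.40 and 2.34 CPM in FceRIa-negative macrophages. Its log2 difference was -0.68 ± 0.31 (SE; adjusted p = 0.374 by edgeR; 0.0369 with the block), and the call was lost with any replicate left out (adjusted p 0.0564 to 0.173 by edgeR) and with DESeq2 in the block (0.116).

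The other 8 genes overlapped between the macrophage groups and were highest in replicate 1 of both. Alox12b had 4.86, 0.382 and 0.295 CPM in FceRIa-positive macrophages and 5.91, 0.674 and 0.414 CPM in FceRIa-negative macrophages. Elovl4 had 9.59, 7.21 and 0.589 CPM in FceRIa-positive macrophages, against 14.5, 5.28 and 0.769 CPM in FceRIa-negative macrophages. Replicates thus differed by far more than the groups, and the 8 log2 differences of -0.98 to -0.21 had adjusted p-values of 0.660 to 0.972 by edgeR.

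Keratin RNA was likewise highest in replicate 1 of both groups. Krt14, a keratin of basal keratinocytes, had 1189, 789 and 97.2 CPM in FceRIa-positive and 1706, 1237 and 129 CPM in FceRIa-negative macrophages. In carcinoma cells it had 32256 to 41160 CPM. All 8 keratinocyte markers were detected in macrophage libraries, summing to 549 to 2380 CPM in FceRIa-positive and 2238 to 4117 CPM in FceRIa-negative libraries, and 7 of 8 passed as lower in FceRIa-positive macrophages with the block. Per 1000 CPM of Krt14, Alox12b had 0.571 to 1.63 CPM in reporter-positive and 0.147 to 0.180 CPM in reporter-negative carcinoma cells. In macrophages it had 0.484 to 4.09 CPM. By the same measure, every macrophage library lay above every carcinoma library for Elovl4 and Cers3. For Elovl4 the lowest macrophage value was 4.27 CPM and the highest carcinoma value 3.20 CPM. For Cers3 these values were 2.14 and 1.59 CPM. Abca12 overlapped between the cell types, at 1.83 to 5.57 CPM in macrophages and 0.643 to 2.15 CPM in carcinoma cells. The part of keratinocyte RNA in the macrophage levels was not tested.

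**Figure D4:**
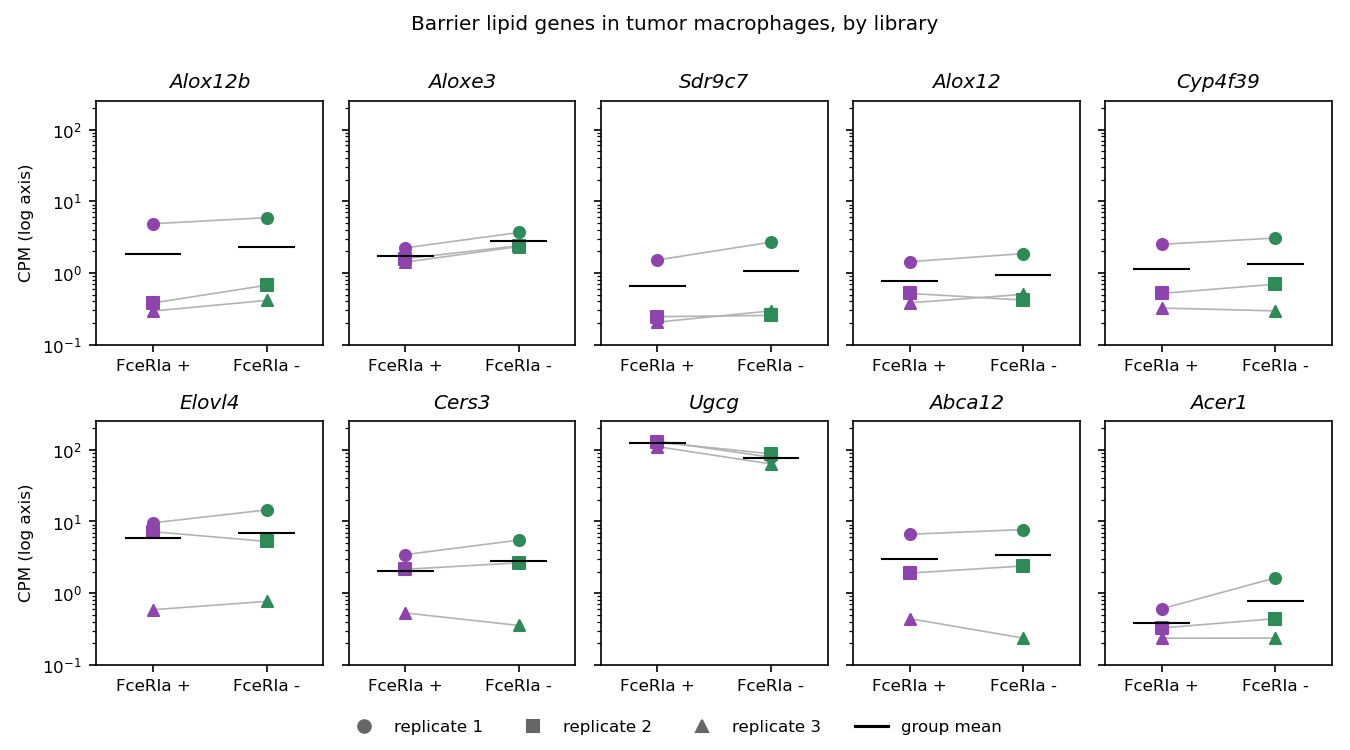
Levels of the 10 genes in each macrophage library in CPM on a log axis, with FceRIa-positive libraries at the left and FceRIa-negative libraries at the right of each panel; symbols mark the replicate number, grey lines join libraries of the same number and black bars are group means (n = 3). Ugcg lies near 100 CPM with all positive points above all negative ones, while the circle of replicate 1 tops both groups in the 8 overlapping genes.

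The wider lipid lists were also read in macrophages, where no gene passed the unpaired fit, and 10.8% of all genes were higher and 10.2% lower with the block. No difference between the macrophage and carcinoma comparisons was tested. Among the other lipoxygenase pathway genes all 7 were tested, with a median log2 difference of -1.21, and 5 passed as lower with the block while none passed unpaired. Ltc4s, the leukotriene C synthase gene, had 18.5, 14.6 and 21.1 CPM in FceRIa-positive macrophages and 38.9, 29.4 and 49.2 CPM in FceRIa-negative macrophages, without overlap (log2 difference -1.12 ± 0.22 SE; adjusted p = 0.0685 by edgeR; 0.000203 with the block). Alox15 differed by -1.21 ± 0.29, Alox8 by -2.51 ± 0.61 and Alox5ap, the gene of the protein that presents arachidonate to the lipoxygenase of leukotriene synthesis, by -0.59 ± 0.24 (log2, SE); the fifth call, named after its values were seen, was that lipoxygenase's gene Alox5 at -1.55 ± 0.73. Alox8, at 0.0273 to 0.138 CPM in FceRIa-positive and 0.327 to 0.710 CPM in FceRIa-negative libraries, was near the level of 3 counts.

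Genes that process or break down ceramide included 4 higher and 1 lower of 18 with the block, and none unpaired, with a median log2 difference of 0.33. Over all genes 10.8% were higher and 10.2% lower with the block, the shares to set beside the counts of each macrophage list. Asah2, a neutral ceramidase gene, had 8.01, 5.10 and 6.51 CPM in FceRIa-positive macrophages, against 2.94, 2.37 and 2.19 CPM in FceRIa-negative macrophages (log2 difference 1.39 ± 0.25 SE; adjusted p = 0.0591 by edgeR). The ceramide kinase gene Cerk and the sphingosine phosphate lyase gene Sgpl1 were higher by 0.53 ± 0.11 and 0.54 ± 0.12, and the sphingosine phosphate exporter gene Spns2 was lower, at -0.84 ± 0.24 (log2, SE). The other higher gene, named after its values were seen, was the acid ceramidase gene Asah1 at 0.51 ± 0.28. Of 11 tested elongation genes 5 were lower and 1 higher with the block; Elovl5 had 63.2, 68.6 and 72.3 CPM in FceRIa-positive and 96.5, 109 and 160 CPM in FceRIa-negative macrophages (log2 difference -0.84 ± 0.19 SE; adjusted p = 0.0911 by edgeR). Of the tested acylceramide genes 3 of 14 were lower with the block, and of the general ceramide synthesis genes 1 of 13, Cers6, at -0.70 ± 0.24 (log2, SE). Among the regulators 3 of 16 were higher and 2 lower with the block, the sterol receptor gene Nr1h3 differing most among the named ones at 1.11 ± 0.17 (log2, SE; adjusted p = 0.0585 by edgeR).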

How the data were processed

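The authors deposited 2 tables of raw read counts per gene, 1 for carcinoma cells and 1 for macrophages, each with 53801 genes. Libraries were made from total RNA with an Illumina TruSeq v2 kit, per the labels' protocols, and the submitters' processing notes name FastQC, STAR and the build GRCm38. How reads were counted, and whether strand was used, is not given in the sources used here. In the tables, 4 columns of counts match no sample of the study and were not used. The columns taken for replicate 2 of both macrophage groups carry the word New in their headers, unlike the other columns used. What it means is not given in the sources used here. Tables were joined by gene ID. Each comparison was fitted on its own 6 libraries, positive minus negative, with edgeR 4.0.16 in R 4.3.3 (TMM factors, filterByExpr, quasi-likelihood test, two-sided, Benjamini-Hochberg adjustment over all genes tested, threshold 0.05); 13604 carcinoma and 14988 macrophage genes were tested, with 99.9% of counts in each. Levels are CPM of TMM-scaled totals. Coordinates and merged exon length came from GENCODE M21. Depth sets a floor of 3 counts, which covers counting error only.

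The labels give replicates 1 to 3 in each group. Deviations from the group means correlated between positive and negative libraries of the same number at 0.554, 0.733 and 0.560 in carcinoma cells and at 0.729, 0.831 and 0.762 in macrophages, so the fit with the number as a block is printed beside calls it changes. In carcinoma cells numbers 1 and 3 could not be told apart by this measure (0.561 and 0.571 across them). The alternatives tried were other filters, other scaling factors, DESeq2 1.42.0 and fits without single libraries; the unpaired fits without replicate 2 in both carcinoma groups or replicate 1 in both macrophage groups, and the fits with libraries 1 and 3 summed, were chosen after seeing the data. Scripts were tested on simulated data.

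The members and gene lists were chosen with earlier results of these data known. All 10 members are named. Of each other list the 4 genes of smallest unpaired p and any gene past the threshold in the unpaired fit could be named, of genes outside the lists the 5 most like Alox12b, and of cell type markers those at 0 or moving with a group. The levels or differences of Krtdap, Krt10, Lor and Krt79 were given after their values were seen.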

Additional observations from a re-analysis of the deposited data

How the results depend on the processing

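In carcinoma cells no member changed direction under any alternative run, though without 1 library the log2 difference ranged from 0.53 to 1.89 for Alox12, 1.11 to 2.77 for Acer1, 1.11 to 2.04 for Cyp4f39, 1.58 to 3.01 for Sdr9c7 and 1.74 to 2.94 for Alox12b, lowest in each without reporter-positive replicate 2. The number of members called higher was 0 in the main unpaired fit, 4 without the expression filter, 9 with DESeq2 (all but Alox12, adjusted p = 0.0678), 10 with the replicate block and 10 with the block in DESeq2, 10 without replicate 2 in either group and 10 with libraries 1 and 3 summed under the block; it was 0 to 7 with 1 library left out, the 7 without reporter-positive replicate 2, and 10 with any pair left out of the block. Over all carcinoma genes 78 were higher and 32 lower; the counts were 173 higher without the filter, 708 and 455 with DESeq2, 1450 and 999 with the block, 1043 and 644 with the block in DESeq2, 2782 and 2619 unpaired without replicate 2, 0 and 0 with libraries 1 and 3 summed, and 691 and 244 when that sum was fitted with the block. Leaving out 1 library gave 0 to 391 higher and 0 to 230 lower, and leaving out 1 pair under the block gave 1055, 2927 and 803 higher and 498, 2802 and 340 lower without replicates 1, 2 and 3. In macrophages 0 genes were called in either direction; the counts were 292 higher and 331 lower without the filter, 658 and 605 with DESeq2, 1618 and 1524 with the block, 1445 and 1362 with the block in DESeq2, 626, 1298 and 1743 higher and 691, 1374 and 1606 lower under the block without replicates 1, 2 and 3, and 0 and 0 to 2 with 1 library left out. Of macrophage members 1, Ugcg, was higher without the filter, with DESeq2, with the block, with the block in DESeq2 and under the block with any pair left out; 1, Aloxe3, was lower with the block, and 0 in the other fits. Without 1 macrophage library the log2 difference ranged from -2.76 to 1.75 for Alox12b, -1.03 to 0.76 for Alox12, -1.54 to 1.18 for Abca12, -1.07 to 0.44 for Cers3, -0.81 to 0.94 for Elovl4, -1.44 to 0.19 for Acer1, -2.23 to 1.25 for Sdr9c7 and -1.67 to 1.16 for Cyp4f39, none of them called; under the block Abca12 was at 0.00085 and 0.027 without replicates 1 and 2 and Elovl4 at 0.18 without replicate 1, and Elovl4 was at 0.35 without replicate 1 in either group. The cause of these changes was not tested. Fits without replicate 2 in both carcinoma groups rest on the near repeats 1 and 3, so their calls measure only the spread between those. With 3 libraries a group, of which 2 were near repeats in carcinoma cells, and as few as 7 counts of a member in a macrophage library, sample number and depth limit what these data can show.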
